A study of Mus musculus with 14 samples.

Results

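The Slc25a genes encode the mitochondrial carrier family, the set of related membrane proteins that pass metabolites through the inner mitochondrial membrane. Every probe set whose single gene symbol in the platform annotation begins with Slc25a was taken, which gave 93 probe sets of 44 genes out of 18193 genes with a probe set. The probe set with the highest mean log2 signal over the 14 arrays stood for its gene. The signal filter left 37 of the 44 genes among the 11308 genes tested for diet, and the other 7 are given as measured. Liver total RNA came from 14 male CBA/J mice, an inbred strain, with 1 mouse on each Affymetrix array. All were housed alone on 84 kcal per week of a purified diet of the AIN93M type. From 2 months of age 7 mice ate the control diet and 7 ate a diet with a powdered extract of krill, a small marine crustacean, and livers were taken at 5 months, after 3 months of feeding. Total protein and total lipid were equal in both diets, while amino acids and fatty acids differed.

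A mitochondrial carrier is built from repeated membrane-crossing modules around a central binding site, and most members exchange one solute for another. In liver they connect the matrix with the cytosol for ATP supply, for the malate-aspartate shuttle, for urea synthesis, for gluconeogenesis and for fatty acid oxidation. A few members sit elsewhere, such as Slc25a17 in peroxisomes and Slc25a46 in the outer mitochondrial membrane.

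On the krill diet 17 of the 37 tested carriers fell, 4 rose and 16 did not pass the test (limma on log2(signal + 16), Benjamini-Hochberg adjusted p under 0.05 over 11308 genes). The falls were spread over most solutes and included carriers of ATP-Mg and phosphate, glutamate, aspartate, dicarboxylates, glutathione, coenzyme A, NAD and iron. Slc25a23, Slc25a22 and Slc25a39 had the lowest log2 changes, -4.26, -2.75 and -2.08. The risers were Slc25a47, a carrier known for its abundance in hepatocytes, the fatty acid carrier Slc25a20, the glutathione carrier Slc25a40 and Slc25a34, which has no assigned solute.

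These counts stand against a broad background. Of all genes tested 47.7% were called in either direction, 22.9% higher and 24.8% lower. Among the carriers 56.76% were called, 10.81% higher and 45.95% lower. The median log2 change was -0.43 over the 37 carriers and 0.04 over all genes tested. A fall of at least 1 on the log2 scale was called for 12 carriers, while 12.9% of all genes fell by that much, and no carrier rose by that much, against 9.99% of all genes. In 6 carriers, Slc25a10, Slc25a12, Slc25a22, Slc25a23, Slc25a39 and Slc25a42, no krill array reached the lowest control array, against 7.61% of all genes. In Slc25a20 and Slc25a47 the lowest krill array stood above the highest control array, which held for 6.52% of all genes. No test of the family as a set was made.

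The arrays of the diets differed in technical measures, and the part of these in the results below was not tested. The actin 3'/5' ratio, which is higher for shorter RNA or cRNA, was 2.09 ± 0.242 on the control diet and 2.98 ± 0.493 on the krill diet, and that of pyruvate carboxylase 6.55 ± 2.34 and 18.3 ± 5.69 (SD, n = 7 arrays per diet). Neither ratio overlapped between the diets (exact permutation, two-sided, p = 0.000583, the smallest possible, adjusted p = 0.00136 over 7 measures). The Gapdh 3'/5' ratio, 0.806 ± 0.0496 in control and 0.964 ± 0.330 on krill, did not pass (exact permutation adjusted p = 0.198). With the mean log2 of the actin and pyruvate carboxylase ratios as a covariate 0 of 37 carriers and 0 of 11308 genes passed in limma. At an unadjusted p under 0.05 in this limma fit there were 4 carriers and 1873 genes. The covariate itself ran from 1.56 to 2.28 in control and from 2.44 to 3.12 on krill, without overlap. Diet and this mean ratio therefore cannot be told apart, and the fit cannot assign a change to either. Krill replicates 2, 4, 5 and 7 had hybridisation spike-ins above every control array. Each called carrier is therefore also given for the remaining 10 arrays, which keep krill replicates 1, 3 and 6. These replicates had actin ratios of 3.01, 2.49 and 2.48, against at most 2.44 in control. Their pyruvate carboxylase ratios were 11.6, 11.8 and 25.7, against at most 10.7 in control. The 10 arrays thus keep the 3'/5' difference between the diets. On those 10 arrays 10 carriers fell and 3 rose, where 19.6% of all genes fell and 12.7% rose (32.3% called). With the spike-in level as a covariate on all 14 arrays 8 carriers fell and 1 rose, where 10.5% of all genes fell and 6.99% rose (17.5% called). Of 8 hepatocyte markers 6 rose and 1 fell on all 14 arrays, where 22.9% and 24.8% of all genes did, and on the 10 arrays Tdo2 alone kept its call, with a list median of 0.30 in place of 0.65. Their summed signal ran from 346513 to 546677 in control and from 481795 to 943848 in krill arrays, so the tissue label held, and fewer cells of a type cannot be told apart from less RNA per cell.

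How an array is scaled moves all genes together. The median change of all tested genes was 0.04 as deposited, -0.36 with arrays centred on their median and -0.72 with arrays scaled on the spike-ins. All 17 falls were called again under both of these scalings, which move the changes downward and so favour falls. None of the 4 rises passed under either, and under spike-in scaling Slc25a20 took a value of -0.18, Slc25a34 of -0.065, Slc25a40 of -0.15 and Slc25a47 of 0.08, all above the median of all genes. Under quantile normalization, with a median of 0.05 over all tested genes, 15 of the 17 falls passed again. Slc25a17 (-0.49, limma adjusted p = 0.125) and Slc25a30 (-0.62, adjusted p = 0.0645) did not. Of the rises Slc25a20 (0.38, adjusted p = 0.0481), Slc25a34 (0.73, adjusted p = 0.0228) and Slc25a47 (0.38, adjusted p = 0.0102) passed there. Slc25a40 (0.52, adjusted p = 0.106) did not, and Slc25a28 was added (0.57, adjusted p = 0.0164). The rises below thus depend on the scaling and are given on the deposited one.

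**Figure D1:**
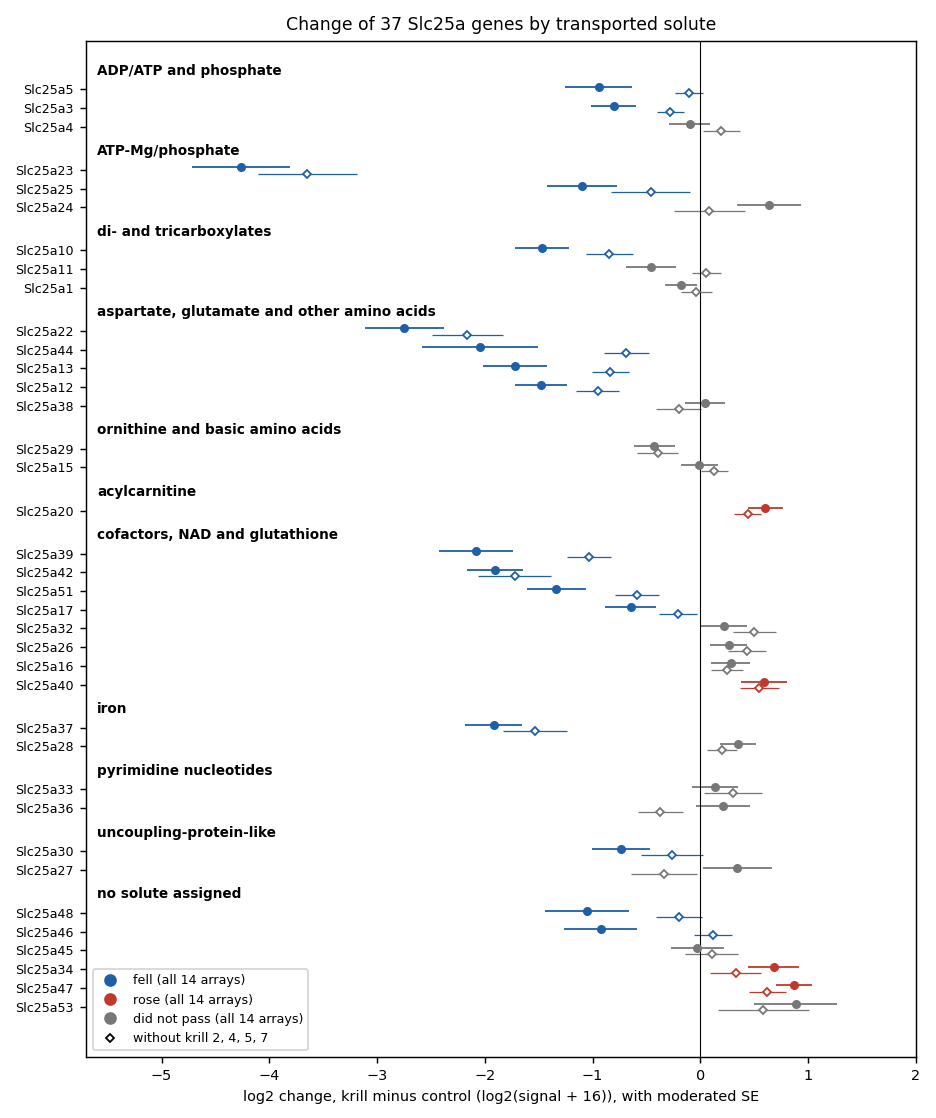
Log2 change, krill minus control, of log2(signal + 16) with its moderated standard error for the 37 tested carriers, grouped by solute; filled circles use all 14 arrays (blue fell, red rose, grey did not pass) and open diamonds leave out krill replicates 2, 4, 5 and 7. Slc25a23 lies farthest left at -4.26 and stays there at -3.65 without those arrays, while Slc25a46 moves from -0.93 to 0.12.

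Upstream sequence is printed for 2 carriers that fell far, Slc25a23 and Slc25a39, and for 2 that rose with no overlap between the diets, Slc25a20 and Slc25a47, to show how their start regions differ. Each is the 250 bases before a start site of the RefSeq annotation, build GRCm38.p6, read 5' to 3' on the gene's strand. Slc25a23 lies at chr17:57059843-57060092 on the minus strand, Slc25a39 at chr11:102407518-102407767 on the minus strand, Slc25a20 at chr9:108661886-108662135 on the plus strand and Slc25a47 at chr12:108850879-108851128 on the plus strand. Capitals mark the GC box (GGGCGG or, on the other strand, CCGCCC) and the CCAAT box (CCAAT or ATTGG).
Slc25a23: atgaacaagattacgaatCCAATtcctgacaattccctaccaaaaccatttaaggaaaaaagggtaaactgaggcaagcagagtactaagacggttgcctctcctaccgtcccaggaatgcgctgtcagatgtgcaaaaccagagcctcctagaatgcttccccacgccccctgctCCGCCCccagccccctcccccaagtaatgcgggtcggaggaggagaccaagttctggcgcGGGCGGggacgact
Slc25a39: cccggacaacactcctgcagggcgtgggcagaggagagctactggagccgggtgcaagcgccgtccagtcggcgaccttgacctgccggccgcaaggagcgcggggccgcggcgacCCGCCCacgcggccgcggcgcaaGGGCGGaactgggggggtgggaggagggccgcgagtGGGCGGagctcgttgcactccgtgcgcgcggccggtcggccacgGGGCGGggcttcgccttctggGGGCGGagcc
Slc25a20: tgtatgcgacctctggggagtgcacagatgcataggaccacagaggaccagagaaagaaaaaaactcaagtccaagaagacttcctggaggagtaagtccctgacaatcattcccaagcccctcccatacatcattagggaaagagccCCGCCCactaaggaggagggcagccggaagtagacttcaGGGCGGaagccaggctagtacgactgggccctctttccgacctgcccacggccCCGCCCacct
Slc25a47: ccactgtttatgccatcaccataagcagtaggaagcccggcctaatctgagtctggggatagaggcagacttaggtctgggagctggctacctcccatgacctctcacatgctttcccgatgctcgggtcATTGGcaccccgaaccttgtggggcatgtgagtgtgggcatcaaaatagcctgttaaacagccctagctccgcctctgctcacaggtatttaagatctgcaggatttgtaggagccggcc
Slc25a39 carried 5 GC boxes in this stretch, Slc25a20 carried 3 and Slc25a23 carried 2 with 1 CCAAT box, whereas Slc25a47 showed 1 CCAAT box and no GC box. RefSeq windows of 300 bases, which add 50 bases after the start, were found for 34 of the 44 carriers, 43 windows in all. The GC box stood in 37 of the 43 (86.0%) and in 35.6% of all 32817 such windows, and the CCAAT box in 48.8% against 37.4%. The TATAAA motif was in 1 carrier window, that of Slc25a18, against 13.6% of all, and the E-box CACGTG in 18.6% against 7.15%. Neither the palindromic site of the nuclear respiratory factor NRF1 nor the DR1 repeat, bound by nuclear receptors such as the PPARs, was in any of the 43 windows with all its letters, and 0.966% and 0.0396% of all windows held them. The GC box thus occurred before carriers that fell and before carriers that rose. These are matches of letters, searched on both strands, and no binding was measured.

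The ADP/ATP and phosphate carriers supply the ATP synthase with its substrates. Among 3 tested members Slc25a3 and Slc25a5 fell and Slc25a4 did not pass. Slc25a3, the phosphate carrier, had control signal of 16311 at the lowest, 18791 at the median and 21725 at the highest array, against 5814, 10633 and 17104 on krill. Of the krill arrays 6 lay below every control array. The change was -0.80 (SE 0.21, limma adjusted p = 0.00437), and -0.28 (adjusted p = 0.108) on the 10 arrays. Slc25a5, the ADP/ATP carrier of most tissues, ran from 23569 over 29588 to 32913 in control and from 5804 over 16633 to 28178 on krill. Its groups overlapped, since krill replicates 1, 3 and 6 read 25589 to 28178, within the control range. The change of -0.94 (SE 0.31, adjusted p = 0.0188) became -0.10 (adjusted p = 0.575) on the 10 arrays. All 8 probe sets of Slc25a5 fell, by -1.15 to -0.76, and 6 of them have names ending in x_at, Affymetrix's mark for probes that may also match related transcripts. Slc25a4, the form best known from heart and muscle, changed by -0.10 at its standing probe set (SE 0.19, adjusted p = 0.68), while another of its 3 probe sets rose by 0.50.

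The ATP-Mg/phosphate carriers load or empty the matrix of adenine nucleotides and are opened by calcium. Slc25a23 and Slc25a25 fell, and Slc25a24 did not pass. Slc25a23, the form best known from liver and brain, had the lowest log2 change of all tested carriers. Its control signal was 1137 at the lowest, 3256 at the median and 6499 at the highest array, and on krill 18.7, 184 and 548. The ranges did not overlap. The fall of -4.26 (SE 0.46, adjusted p = 1.15e-05) is 19.2-fold on the log2(signal + 16) scale, and it was -3.65 (adjusted p = 0.000627) on the 10 arrays. The mean krill signal of Slc25a23 lay at the 80.77th percentile of 78 olfactory and vomeronasal receptor probe sets, genes that liver is not known to use. The level on krill is therefore not shown to stand above background, and the size of the fold is not settled. Slc25a25 ran from 683 over 1585 to 3466 in control and from 404 over 572 to 1694 on krill, with overlap. It fell by 1.10 on the log2 scale (SE 0.32, adjusted p = 0.00996), and the 10 arrays gave -0.46 (adjusted p = 0.362). Its other 2 probe sets read -0.23 and 0.47 and did not pass. They were dim, with mean signals of 207 and 115 in control and of 169 and 159 on krill. With the mean of the 3 the call was lost (-0.29, limma adjusted p = 0.249). Slc25a24 read 0.64 (SE 0.30, adjusted p = 0.0834) and 0.08 on the 10 arrays.

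**Figure D2:**
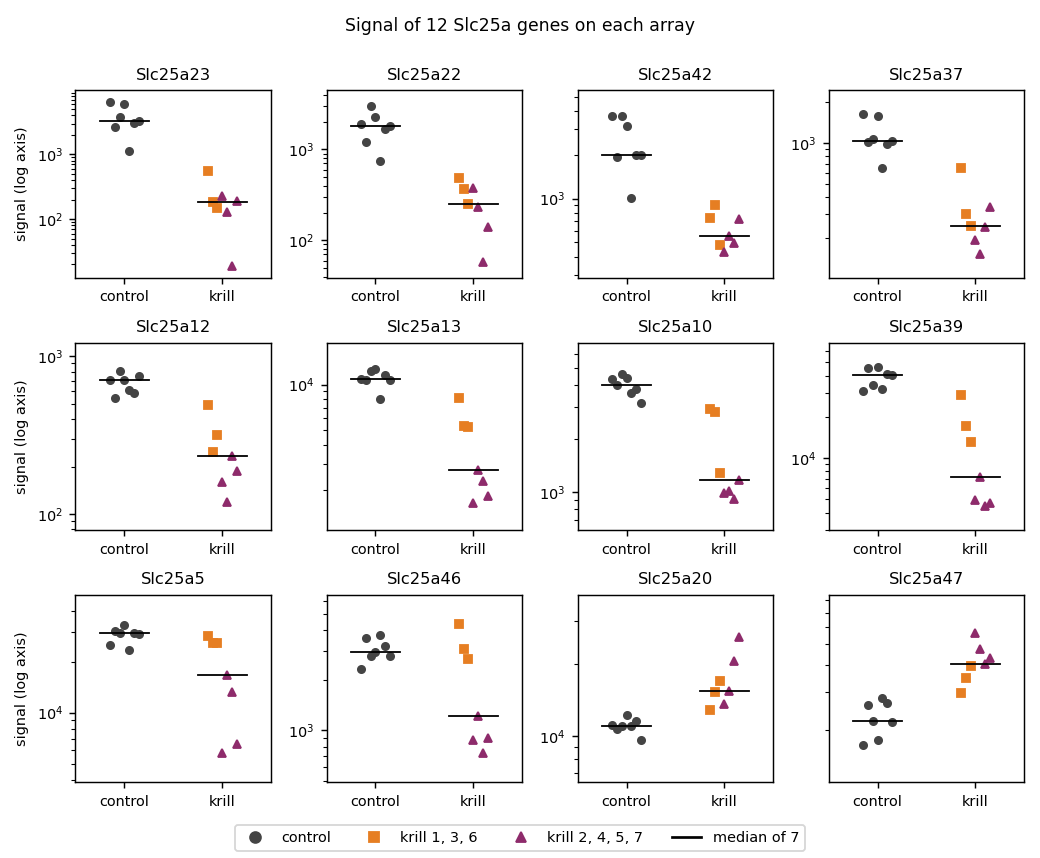
Deposited signal of 12 carriers on each array (log axis), with control arrays as grey circles, krill replicates 1, 3 and 6 as orange squares, krill replicates 2, 4, 5 and 7 as purple triangles and the median of 7 as a line. Slc25a23 and Slc25a22 are low on all 7 krill arrays, whereas Slc25a5 and Slc25a46 are low only on replicates 2, 4, 5 and 7, at 5804 to 16633 and 731 to 1217.

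Of the di- and tricarboxylate carriers, Slc25a10 fell and the other 2 tested did not pass. Slc25a10, which exchanges malate or succinate for phosphate, had control signal of 3190, 3984 and 4608 at the lowest, median and highest array and krill signal of 918, 1175 and 2919. No krill array reached the lowest control array. The change was -1.47 (SE 0.25, adjusted p = 0.000169), or -0.85 (adjusted p = 0.00928) on the 10 arrays, and its other probe set fell as well, with a change of -2.50. Slc25a11, which exchanges oxoglutarate for malate, read -0.46 (SE 0.23, adjusted p = 0.11) and 0.06 on the 10 arrays. Slc25a1, the citrate exporter that feeds fatty acid synthesis, read -0.18 (SE 0.15, adjusted p = 0.337), with a 10-array value of -0.04. From a list of citrate-handling enzymes 3 of 6 tested fell and 0 rose, where 24.8% of all genes fell and 22.9% rose. Among them were cytosolic aconitase Aco1 (-1.80), citrate synthase Cs (-0.70) and acetyl-CoA carboxylase Acaca (-0.91). The fall of Cs did not pass on the 10 arrays (-0.45, adjusted p = 0.0671).

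The carriers of aspartate, glutamate and other amino acids held 4 falls among 5 tested members. Slc25a22, a glutamate carrier, ran from 740 over 1791 to 2965 in control and from 58.3 over 253 to 490 on krill. The ranges did not meet, and the change was -2.75 (SE 0.36, adjusted p = 3.43e-05), with -2.16 (adjusted p = 0.000837) on the 10 arrays. On krill the mean signal of Slc25a22 lay at the 93.59th percentile of the 78 receptor probe sets, so the size of its fall is not settled. Slc25a13, or citrin, is the aspartate-glutamate carrier of liver in the malate-aspartate shuttle. In control its signal was 8014, 10885 and 12616 at the lowest, median and highest array, and on krill 1630, 2729 and 8143. Krill replicate 1 was the single krill array above the lowest control array. Slc25a13 changed by -1.72 (SE 0.30, adjusted p = 0.0002), and by -0.83 (adjusted p = 0.00253) on the 10 arrays. Slc25a12, or aralar, its paralog known from brain and muscle, ran from 544 over 709 to 811 in control and from 119 over 234 to 489 on krill, without overlap. Its change was -1.48 (SE 0.24, adjusted p = 0.000114), and -0.95 (adjusted p = 0.00304) on the 10 arrays. With the mean of its 3 probe sets, which disagreed, the call was lost (-0.087, limma adjusted p = 0.743). The others were dim, with mean signals of 125 and 84.1 in control and of 165 and 172 on krill. The mean krill signal of Slc25a12 also lay at the 93.59th percentile of the receptor probe sets, so the size of its fall is not settled.

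Slc25a44, which imports branched-chain amino acids, read 891, 1088 and 1368 in control and 15.3, 364 and 988 on krill at the lowest, median and highest array. Of the krill arrays 6 were outside the control range. The change was -2.05 (SE 0.54, limma adjusted p = 0.00484), and it shrank to -0.69 (adjusted p = 0.0205) on the 10 arrays and to -0.73 (adjusted p = 0.0248) with the mean of its 3 probe sets. On krill replicates 2 and 7 Slc25a44 read 15.3 and 95.9. The receptor probe sets had medians of 131 to 183 on krill replicates 2, 4, 5 and 7, so the size of its fall is not settled. Slc25a38, the glycine carrier needed for heme synthesis, read 0.04 (SE 0.19, adjusted p = 0.86). The 4 enzymes of the malate-aspartate shuttle split, as the cytosolic aminotransferase Got1 (-2.16) and mitochondrial malate dehydrogenase Mdh2 (-1.61) fell and the other 2 did not pass. Of all genes tested 24.8% fell.

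Slc25a44 and Slc25a12 were the only tested carriers with probe sets called in opposite directions. For Slc25a44 the standing probe set and a second one fell, by -2.05 and -1.62, while the third rose by 1.47. For Slc25a12 1 probe set rose by 0.89 against the fall of -1.48, and the third read 0.33 and did not pass. The rising and the third probe set had mean krill signals of 172 and 165. The receptor probe sets had medians of 131 to 183 on krill replicates 2, 4, 5 and 7, and the part of this background was not tested. With every probe set past the filter tested, 34 of the 70 carrier probe sets fell and 8 rose, where 26.3% of all 19246 such probe sets fell and 19.1% rose (45.4% called). Slc25a39 was even across its probe sets, with all 4 between -2.27 and -1.98, though most of them, the standing one included, have names ending in x_at. Slc25a46, the outer-membrane member, also fell on both of its probe sets, by -0.93 and -1.33. The standing probe set of Slc25a15 read -0.01 while its second fell (-0.96), and in Slc25a29 1 of 5 fell (-1.22). Slc25a26, the S-adenosylmethionine carrier, had 1 of 2 probe sets called, a rise of 0.93.

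**Figure D3:**
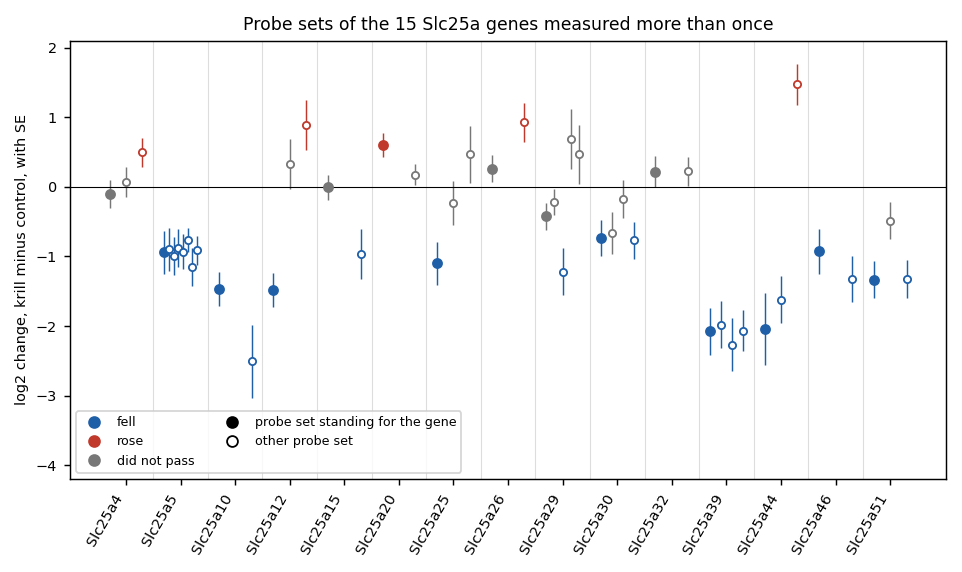
Log2 change, krill minus control, with its standard error for each probe set past the signal filter in the 15 carriers measured by more than 1; filled points stand for the gene, and blue fell, red rose and grey did not pass. All 8 probe sets of Slc25a5 and all 4 of Slc25a39 lie below 0, while Slc25a12 and Slc25a44 have probe sets on both sides.

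The carriers of ornithine and basic amino acids serve the urea cycle, and neither of the 2 tested passed. Slc25a29, which carries arginine and lysine, had the smaller p of the pair. Its control signal was 598, 804 and 1184 at the lowest, median and highest array and its krill signal 397, 612 and 911, with overlap. The change was -0.43 (SE 0.19, adjusted p = 0.0686). Slc25a15, which exchanges ornithine for citrulline, read -0.01 (SE 0.17, adjusted p = 0.969), with 8861 to 11862 in control and 6486 to 15274 on krill. Of 7 urea cycle enzymes tested Arg1 rose (0.92), Nags (-0.57) and Ass1 (-0.77) fell and 4 did not pass, where 24.8% of all genes fell and 22.9% rose. On the 10 arrays neither fall passed (Nags -0.26, adjusted p = 0.176, and Ass1 -0.83, adjusted p = 0.125), while Arg1 did (0.61).

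Slc25a20, the carnitine-acylcarnitine carrier, takes long-chain fatty acids into the matrix for oxidation, and it rose. Control arrays ran from 9598 over 11025 to 12221 and krill arrays from 12860 over 15360 to 25724. Every krill array lay above every control array. The rise of 0.60 (SE 0.16, adjusted p = 0.00482) equals 1.52-fold, and on the 10 arrays it was 0.44 (adjusted p = 0.0156). It did not pass with arrays centred (0.20), and it turned to -0.18 under spike-in scaling. A second probe set of Slc25a20 read 0.17 and did not pass. Of 5 tested enzymes and carriers of the carnitine shuttle 3 fell and 0 rose. The 3 were Cpt1a (-1.86), which makes acylcarnitine at the outer membrane, Cpt2 (-0.79), which releases it in the matrix, and carnitine acetyltransferase Crat (-1.61). On the 10 arrays these 3 falls passed again, and the peroxisomal octanoyltransferase Crot, 0.42 on all arrays, passed as a rise of 0.83 (adjusted p = 0.00433).

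The group that carries cofactors, NAD and glutathione was the largest, with 4 falls, 1 rise and 3 that did not pass among 8. Slc25a39 and Slc25a40, both glutathione carriers, were called in opposite directions. Slc25a39 had control signal of 30903, 40586 and 46235 at the lowest, median and highest array and krill signal of 4470, 7223 and 28688. The ranges did not overlap, though krill replicates 1, 3 and 6, at 13128 to 28688, lay well above the other 4, at 4470 to 7223. It changed by -2.08 (SE 0.34, adjusted p = 0.000144), and by -1.03 (adjusted p = 0.00241) on the 10 arrays. Slc25a40 ran from 177 over 223 to 273 in control and from 206 over 328 to 655 on krill, with 6 krill arrays above the control range. Its rise of 0.59 (SE 0.21, adjusted p = 0.0302) was 0.55 (adjusted p = 0.034) on the 10 arrays, 0.18 with arrays centred and -0.15 under spike-in scaling. The receptor probe sets had medians of 20.1 to 38 per control array. On krill these were 32.4 to 71.1 for replicates 1, 3 and 6 and 131 to 183 for replicates 2, 4, 5 and 7. The part of this background in the rise of the dim Slc25a40 was not tested.

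Slc25a42, which brings coenzyme A into the matrix, read 1008, 2002 and 3675 in control and 430, 558 and 899 on krill at the lowest, median and highest array, with no overlap. The change of -1.91 (SE 0.26, adjusted p = 3.84e-05) was nearly as large on the 10 arrays, at -1.72 (adjusted p = 0.00205). Slc25a51, the NAD carrier, ran from 1121 over 1449 to 1734 in control and from 318 over 455 to 1472 on krill, and 6 krill arrays lay below the control range. Slc25a51 fell by 1.34 on the log2 scale (SE 0.27, adjusted p = 0.00079), with -0.59 (adjusted p = 0.0406) on the 10 arrays. The peroxisomal carrier Slc25a17, which moves coenzyme A and FAD, fell too, with a change of -0.65 (SE 0.24, adjusted p = 0.0335), with -0.21 (adjusted p = 0.396) on the 10 arrays. Slc25a16, linked to coenzyme A transport, the S-adenosylmethionine carrier Slc25a26 and the folate carrier Slc25a32 read 0.28, 0.26 and 0.22 and did not pass.

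The mitoferrins bring iron to the matrix for heme and iron-sulfur clusters. Slc25a37, mitoferrin 1, is best known from developing red cells, and Slc25a28, mitoferrin 2, is found widely. Slc25a37 fell, from 651, 1024 and 1610 in control to 155, 245 and 658 on krill at the lowest, median and highest array. Krill replicate 1 alone reached the control range. The change was -1.92 (SE 0.26, adjusted p = 4.24e-05), and -1.53 (adjusted p = 0.00199) on the 10 arrays. Slc25a28 read 0.35 (SE 0.17, adjusted p = 0.0926), with 862 to 1067 in control and 1014 to 2176 on krill. Of the red cell markers measured, the heme enzyme Alas2 was the one tested and read 0.07 (SE 0.25, adjusted p = 0.835) with 0.56 (adjusted p = 0.0285) on the 10 arrays, and the summed signal of the 4 measured markers was 3308 to 3986 in control and 2074 to 8190 on krill. The alpha globin Hba-a1 had medians of 23.5 and 65.9, below the signal filter.

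Neither pyrimidine nucleotide carrier passed. Slc25a36 ran from 170 over 225 to 299 in control and from 151 over 265 to 495 on krill, with overlap, and its change was 0.21 (SE 0.25, adjusted p = 0.503) with -0.37 on the 10 arrays. Slc25a33, which is known to respond to insulin and growth signals, read 0.14 (SE 0.22, adjusted p = 0.616).

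Of the members resembling uncoupling proteins, Slc25a30 fell and Slc25a27 did not pass. Slc25a30, known as a kidney mitochondrial carrier, ran from 1629 over 2124 to 5064 in control and from 894 over 1761 to 2369 on krill, with overlap. The change was -0.74 (SE 0.27, adjusted p = 0.0294), and -0.26 (adjusted p = 0.517) on the 10 arrays, and the mean of its 4 probe sets gave -0.59 (adjusted p = 0.0655). Slc25a27 read 0.34 (SE 0.32, adjusted p = 0.385). Among family members that bear other names, Ucp3 rose by 1.21 (adjusted p = 0.0155), with 0.23 (adjusted p = 0.656) on the 10 arrays, and the carrier homologs Mtch1 and Mtch2 did not pass.

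Among 6 tested carriers placed in no solute group Slc25a47 and Slc25a34 rose, Slc25a46 and Slc25a48 fell and 2 did not pass. Slc25a47, also named for its downregulation in liver tumours, had control signal of 17028, 21897 and 27986 at the lowest, median and highest array and krill signal of 29487, 40303 and 56455. The diets did not overlap. Slc25a47 rose by 0.87 (SE 0.17, adjusted p = 0.000518), or 1.82-fold, and by 0.62 (adjusted p = 0.0129) on the 10 arrays. Centring left 0.47 and spike-in scaling 0.08, neither of which passed. Slc25a34 rose by 0.68 (SE 0.24, adjusted p = 0.0264) in 6 of 7 krill arrays, with 0.33 (adjusted p = 0.312) on the 10 arrays and -0.065 under spike-in scaling. It is dim, at medians of 213 in control and 327 on krill, and the part of the higher krill background in its rise was not tested.

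Slc25a48 ran from 202 over 265 to 387 in control and from 21.7 over 211 to 249 on krill, with overlap. It changed by -1.05 (SE 0.39, adjusted p = 0.0334), and by -0.20 (adjusted p = 0.503) on the 10 arrays. The mean krill signal of Slc25a48 lay at the 67.95th percentile of the 78 receptor probe sets, so its level on krill is not shown to stand above background and the size of the change is not settled. Slc25a46, which acts in mitochondrial fission and lipid supply, ran from 2338 over 2942 to 3715 in control and from 731 over 1217 to 4319 on krill. Krill replicates 1, 3 and 6 lay at 2665 to 4319, and the other 4 at 731 to 1217. The change of -0.93 (SE 0.33, adjusted p = 0.0297) became 0.12 (adjusted p = 0.645) on the 10 arrays, so its direction was carried by those 4 arrays. Slc25a53 read 0.89 (SE 0.39, adjusted p = 0.0652) and Slc25a45 -0.03 (SE 0.24, adjusted p = 0.935), and neither passed.

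The 7 carriers below the signal filter were Slc25a2, Slc25a14, Slc25a18, Slc25a31, Slc25a35, Slc25a41 and Slc25a54. Several are known from tissues other than liver, such as the testis ADP/ATP carrier Slc25a31 and the brain members Slc25a14 and Slc25a18. The control medians ran from 13.1 in Slc25a54 to 66.6 in Slc25a35, and the krill medians from 9.5 in Slc25a31 to 130.8 in Slc25a2. The 78 receptor probe sets had a median of 20.1 to 38 per control array. Their median was 32.4 to 71.1 on krill replicates 1, 3 and 6 and 131 to 183 on replicates 2, 4, 5 and 7. Low signal was thus higher on krill arrays, chiefly on replicates 2, 4, 5 and 7. With no filter Slc25a2, an ornithine carrier paralog, and Slc25a54 passed as higher, at 1.03 and 1.51, beside this higher low-end signal.

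The 4 krill arrays with bright spike-ins were also the low ones for many carriers. In 12 of the 17 carriers that fell, or 70.6%, replicates 2, 4, 5 and 7 all lay below replicates 1, 3 and 6. The same order held in 31.9% of all 2803 genes that fell and in 12.8% of all genes tested. The 5 fallen carriers without this order were Slc25a17, Slc25a22, Slc25a23, Slc25a37 and Slc25a42, and of these all but Slc25a17 were called on the 10 arrays. The 10 carriers that fell on the 10 arrays were Slc25a10, Slc25a12, Slc25a13, Slc25a22, Slc25a23, Slc25a37, Slc25a39, Slc25a42, Slc25a44 and Slc25a51, and the 3 that rose were Slc25a20, Slc25a40 and Slc25a47.

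Each array was also left out in turn. Of the 21 calls 15 held in all 14 of these fits, Slc25a20 and Slc25a47 among the risers included. Slc25a17 lost its call in 8 of the fits, Slc25a48 in 7, Slc25a46 in 6, Slc25a30 in 5 and Slc25a34 and Slc25a40 in 3 each. Without control replicate 6 Slc25a34 and Slc25a40 both lost the call, which left 2 rises, and without krill replicate 1 there were 6, with Slc25a24 and Slc25a53 added. The change of Slc25a34 ran from 0.55 to 0.85 over the 14 fits and that of Slc25a40 from 0.44 to 0.70. Slc25a23, the carrier with the lowest change, stayed between -4.54 and -3.87.

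Related carriers were compared within each array, which removes a scaling factor shared by all probe sets of an array. It does not remove the higher low-end signal of the krill arrays. The comparison also makes no adjustment for the 3'/5' ratios, which did not overlap between the diets for actin and pyruvate carboxylase. Their part in the shifts was not tested. The difference of log2(signal + 16) between the members of 9 pairs was taken on every array and its shift between the diets tested by exact permutation, two-sided, over 3432 assignments, with adjustment over the 9 pairs. These pairs were chosen after the data had been seen. Slc25a23 shifted against Slc25a24 by -4.90 (adjusted p = 0.00131) and against Slc25a25 by -3.16 (adjusted p = 0.00131, exact permutation). On krill the mean signals of Slc25a23 and Slc25a24 lay at the 80.77th and 93.59th percentile of the receptor probe sets, so the sizes of these shifts are not settled, and the part of background in them was not tested. Mitoferrin 1, Slc25a37, shifted against mitoferrin 2 by -2.26 and the glutathione carrier Slc25a39 against Slc25a40 by -2.67 (exact permutation adjusted p = 0.00131 each), and in these 4 pairs no krill array overlapped the control arrays. Slc25a42 shifted against Slc25a16 by -2.19 (exact permutation adjusted p = 0.0021), with 6 krill arrays outside the control range.

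On the 10 arrays, where 120 assignments allow no p under 0.00833, those 5 shifts were -3.73, -3.19, -1.73, -1.58 and -1.97 (exact permutation adjusted p from 0.01875 to 0.03). Slc25a5 shifted against Slc25a4 by -0.84 (exact permutation adjusted p = 0.0172) and Slc25a25 against Slc25a24 by -1.74 (exact permutation adjusted p = 0.0105), and on the 10 arrays these came to -0.30 and -0.55 (exact permutation adjusted p = 0.178 each). For the aspartate-glutamate carriers the shift of Slc25a13 against Slc25a12 was -0.24 and did not pass (exact permutation adjusted p = 0.325). The pyrimidine carriers gave a shift of 0.07 for Slc25a36 against Slc25a33 (exact permutation adjusted p = 0.804).

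**Figure D4:**
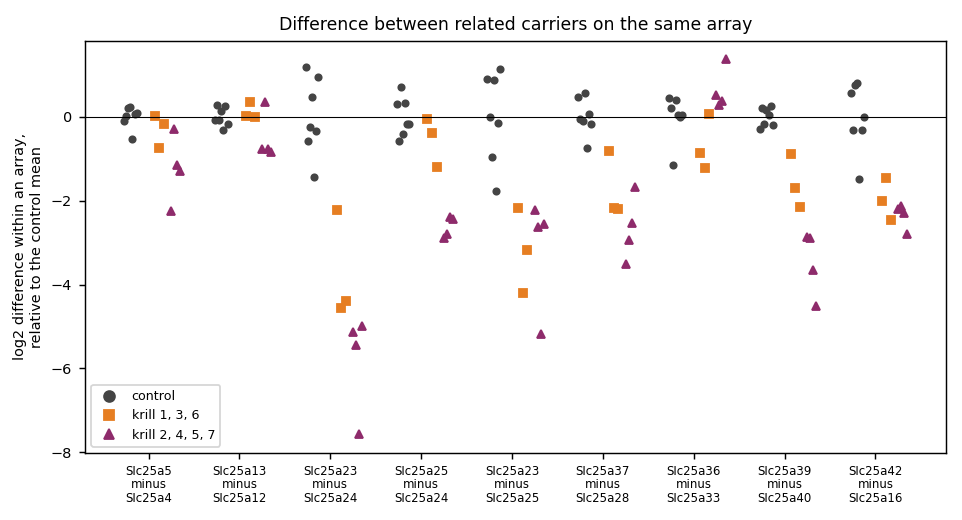
Difference in log2(signal + 16) between 2 related carriers on the same array, relative to the control mean, for 9 pairs; grey circles are control arrays, orange squares krill replicates 1, 3 and 6 and purple triangles krill replicates 2, 4, 5 and 7. The 4 pairs Slc25a23 minus Slc25a24, Slc25a23 minus Slc25a25, Slc25a37 minus Slc25a28 and Slc25a39 minus Slc25a40 show no overlap between the diets.

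Of 12 tested proteins that bring carriers to the inner membrane and insert them, 5 rose, 2 fell and 5 did not pass on the deposited scaling, with a median of 0.37. Of all genes tested 22.9% rose and 24.8% fell (47.7% called), which is the background for each list in this paragraph. The insertion channel Timm22 rose by 1.41, the small chaperone Timm8b by 1.94 and the receptor Tomm20 by 1.61, while the outer-membrane pore Tomm40 fell by 1.22 on the log2 scale and Timm29 also fell (-0.70). The 10 arrays gave -0.32 (adjusted p = 0.254) for Timm29, and the other 6 calls held there. Other transport proteins of mitochondria gave 5 falls, 1 rise and 6 that did not pass, among them Abcb8 (-2.11), the cation exchanger Letm1 (-1.80) and the pyruvate carrier subunit Mpc1 (1.19). Of 8 tested Kupffer cell markers 2 rose and 1 fell, and the summed signal of the list was 8770 to 11905 in control and 10264 to 20286 on krill. Of 2 exocrine pancreas markers tested Cela1 rose (1.31) and Cel did not pass, the summed signal of the 4 measured was 2663 to 5177 in control and 6124 to 19153 on krill, and the defining marker Ctrb1 stood at medians of 38.3 and 43.4. The part of these cell types in the carrier results was not tested.

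**Figure D5:**
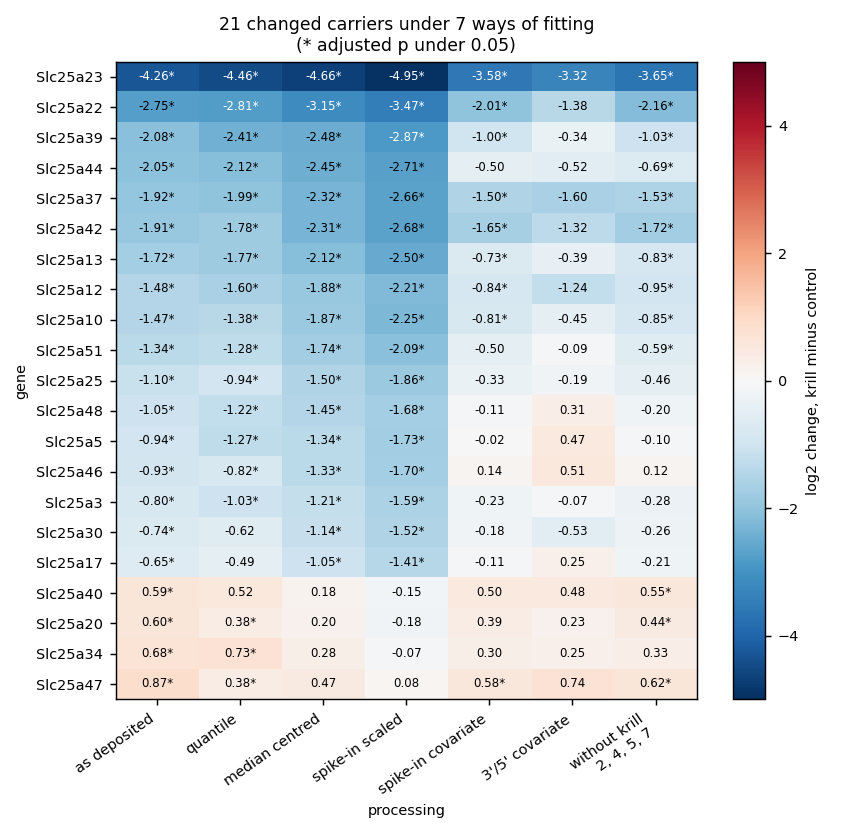
Log2 change, krill minus control, of the 21 called carriers (vertical axis) under 7 ways of processing (horizontal axis); colour and printed number give the change and an asterisk an adjusted p under 0.05. All 17 falls are larger with arrays centred or spike-in scaled than as deposited, Slc25a23 reaching -4.95, and with the 3'/5' covariate 0 of the 21 carry an asterisk.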

How the data were processed

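Liver RNA of 14 mice, 7 per diet, was measured with 1 mouse per array, per the labels, and the titles gave each array's diet and replicate number. The values were the table the authors deposited, linear signal intensity per probe set, made with MAS5 per the submitters' processing notes (version not given in the sources used here). MAS5 scales each array to a common trimmed mean, which lifts dim and background signal on an array with little RNA signal. Detection calls were not used here, and the number of arrays limits the precision. P-values measure the spread between mice and their arrays together.

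Of 45101 probe sets 64 were controls, 34945 had 1 gene symbol, 932 several and 9160 none listed. Probe sets naming several genes were left out, including one for Slc25a37. Signal was taken as log2(signal + 16), which understates folds of dim genes. The 50% of non-control probe sets with the higher mean (22518) were kept, and the highest-mean probe set stood for each of 11308 genes. Slc25a46 has 2 probe sets of near-equal mean, and the choice between them depends on the log scale. The diets were compared using limma (version 3.58.1, R 4.3.3; lmFit, eBayes with trend, no covariate) with Benjamini-Hochberg adjustment. Folds of the log2 change come from the same scale. Promoter windows came from RefSeq, GRCm38.p6. The procedure was tested on simulated data, which recovered 66 of 100 changes of size 1 and 83 of 100 of size 2 on the log2 scale. There were 6 false calls among 10888 unchanged genes. Both groups were drawn with the spread of the control arrays, so a spread that differs between the diets was not simulated. Python 3.11.15, numpy 2.4.6, pandas 2.3.3 and matplotlib 3.10.9 served for summaries and figures.

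Members, gene lists, solute groups and alternatives were chosen with earlier results of these data known. Array values were given by rule for called carriers changed by at least 1 on the log2 scale, for the smallest p in each solute group and for carriers with probe sets called in opposite directions, while those of Slc25a5, Slc25a40 and Slc25a46 were added after their values were seen, as were the 9 pairs. From each other list up to 3 members with the smallest p were named, besides a few added in the same way. The alternatives were other pseudocounts (1 and 64), normalizations, signal filters, probe set rules, variance models and covariates, the replicate number as a block, leaving out 4 krill arrays, and leaving out each array. Same-numbered arrays of the diets did not deviate together (correlations from -0.02 to 0.10), so the numbers were not taken as pairs.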

Additional observations from a re-analysis of the deposited data

Results flagged for a closer look

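In each diet the highest and the lowest of the 7 arrays were compared with their nearest neighbour, as the gap divided by the group's whole range (Dixon's ratio, at its 95% critical value), for 102 groups of carrier signals and array measures. There were 7 ratios above it, and chance gives about 1 in 20 groups. Slc25a11, the oxoglutarate carrier, was low on control replicate 1 (ratio 0.664), at 2693 against 3498 to 3993 on the other control arrays. Slc25a13, or citrin, was low on control replicate 5 (ratio 0.642), at 8014 against 10724 to 12616. Slc25a53 was low on control replicate 7 (ratio 0.701), at 19.7 against 72.6 to 114.5.

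On the krill diet Slc25a16 was high on replicate 7 (ratio 0.576), at 7777 against 3135 to 4609, and Slc25a45 was low on that array (ratio 0.695), at 378 against 808 to 1122. The same array had the outlying Gapdh 3'/5' ratio (ratio to the range 0.732), at 1.69 against 0.75 to 1.0029 on the other krill arrays. Mitoferrin 2, Slc25a28, was high on krill replicate 2 (ratio 0.622), at 2176 against 1014 to 1354. None of the 5 carriers other than Slc25a13 was called for diet, and Slc25a13 kept its call without control replicate 5.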

How the results depend on the processing

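Of the 21 called carriers, 15 kept direction and call in all 14 fits that left out 1 array, over which the count of falls ran from 13 to 17, that of rises from 2 to 6 and that of all called genes from 4680 to 6147. Rises numbered 0 with arrays centred or spike-in scaled, 8 with every probe set tested and 1 with the spike-in level as a covariate. Falls numbered 34 with every probe set, 8 with the spike-in covariate and 10 without krill replicates 2, 4, 5 and 7. Adding the 3'/5' index as a covariate, there were 0 rises, 0 falls and 0 called genes in limma (1873 genes at an unadjusted p under 0.05). Called genes numbered 8729 with every probe set and 1978 with the spike-in covariate. Among the 21 called carriers signs turned under spike-in scaling for Slc25a20 (-0.18), Slc25a34 (-0.065) and Slc25a40 (-0.15), with the 3'/5' index for Slc25a5 (0.47), Slc25a17 (0.25), Slc25a46 (0.51) and Slc25a48 (0.31), and for Slc25a46 with the spike-in covariate (0.14) and without the 4 arrays (0.12). Of the 16 that did not pass, signs turned in 9, 8, 8 and 7 under these settings in that order and in 8 with arrays centred, including Slc25a36 (-0.54) and Slc25a38 (-0.73), which fell under spike-in scaling. Averaging a carrier's probe sets left 14 falls and 5 rises, and Slc25a12, Slc25a25 and Slc25a30 lost the call. The cause was not tested. The replicate block, whose numbers do not pair the arrays, gave 17 falls, 4 rises and 5253 called genes, and 1 of 7 numbers correlated best with itself. Dim carriers are limited by background, which was higher on krill arrays, chiefly on replicates 2, 4, 5 and 7.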
